A study of Mus musculus with 8 samples.

Results

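The collapsin response mediator proteins (CRMPs) are encoded by 5 mouse genes, Crmp1, Dpysl2 (CRMP2), Dpysl3 (CRMP4), Dpysl4 (CRMP3) and Dpysl5 (CRMP5). All 5 were found by symbol among the 23356 genes of a table of sciatic nerve RNA levels, and no filter on expression was applied in choosing them. The family was taken up because Dpysl5 was lower in 1 genotype than in wild type, so that contrast is described here for every member without a test. The levels of Dpysl5 in contrasts that share the wild-type libraries are described in the same way.

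The sciatic nerve carries axons whose cell bodies lie outside it, together with Schwann cells, perineurial cells, fibroblasts, endothelial cells and macrophages. RNA came from nerves of mice aged 30 days, all F1 animals of C57BL/6 and FVB/N, and libraries were poly A selected and read on an Illumina HiSeq2500. The 4 genotypes had 2 libraries each. They were wild type (WT), Q215X/+ with 1 mutant allele, HA-NRG1 type III/+, transgenic for the growth factor neuregulin 1 in its type III form, and HA-NRG1 type III/+:Q215X/+ with both, called the double below. The sources used here do not give the promoter of the transgene or say whether a library held 1 animal or a pool. They also do not state that the 2 libraries of a genotype came from different mice. The p-values therefore measure spread between libraries that may be technical. The columns of the table end in 0 or 1, called set 0 and set 1 here. Levels are FPKM, fragments scaled to transcript length and to library size, so they can be compared between genes.

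CRMPs are cytosolic phosphoproteins of developing and regrowing axons. They were named for the growth cone collapse that semaphorin 3A (once called collapsin) sets off through neuropilin and plexin receptors, and CRMP2 binds tubulin dimers and promotes microtubule assembly. Phosphorylation of CRMP2 by Cdk5 and then by Gsk3b releases it from tubulin. The proteins resemble dihydropyrimidinase, an enzyme of pyrimidine breakdown, without sharing its activity. CRMP5 is the most divergent member, and in people it is the antigen of an autoantibody found in paraneoplastic neuropathy.

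Dpysl5 lies on the plus strand of chromosome 5 (GRCm38, 30711564 to 30799369), and its longest coding transcript has 13 exons and 5191 bases. The annotation also places Gm46907 over it, for which no level was used here. Of the members, 2 of 5 (Dpysl5 and Crmp1) were found in the RefSeq promoter windows used here. The 250 bases before the start of Dpysl5 are shown because this is the member whose RNA level differed, and they are the stretch in which letters of regulators known in Schwann cells and neurons were looked for (RefSeq, GRCm38.p6, chr5:30711314-30711563, plus strand). Capitals mark CCGCCC, the reverse complement of the GC-box letters GGGCGG, and CTTTGT, the reverse complement of the SOX core ACAAAG.
Dpysl5: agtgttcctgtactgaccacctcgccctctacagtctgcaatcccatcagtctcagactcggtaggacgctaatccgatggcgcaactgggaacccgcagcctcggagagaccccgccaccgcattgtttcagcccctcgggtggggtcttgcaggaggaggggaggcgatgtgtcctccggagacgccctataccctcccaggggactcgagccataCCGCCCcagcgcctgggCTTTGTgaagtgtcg
On both strands of the window of 300 bases from 250 before to 50 after the start, the GC-box letters occurred 1 time (35.7% of all 32851 RefSeq windows hold them) and the SOX core 1 time (18.7% of windows). The letters GCGNGGGCG of EGR factors (5.55% of windows, and able to overlap a GC-box), TGANTCA of AP-1 (7.81%) and GGAATG of TEAD factors (14.7%) were not in this window. Its G and C content was 61.0% with 19 CpG pairs, against medians of 52.7% and 7 over all windows. These matches describe letters and are not sites of binding.

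The 5 genes differed widely in level in the nerve. Dpysl3, which acts on actin and microtubules in growth cones, and Dpysl2 had the highest levels, followed by Dpysl4, Dpysl5 and, far lower, Crmp1. In WT the group means were 13.6 ± 3.84 FPKM for Dpysl2, 12 ± 1.4 for Dpysl3, 6.41 ± 0.194 for Dpysl4, 4.15 ± 0.396 for Dpysl5 and 0.0739 ± 0.0351 for Crmp1 (SD, n = 2). Dpysl2 and Dpysl3 did not differ beyond their spread, while every other step in this order was free of overlap between libraries.

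Dpysl5 showed a graded pattern over the genotypes. Its FPKM in sets 0 and 1 was 4.43 and 3.87 in WT, 3.07 and 2.63 in Q215X/+, 1.42 and 1.28 in HA-NRG1 type III/+, then 1.12 and 1.02 in the double. In this order, which is that of its own means, libraries of neighbouring genotypes did not overlap at any step. Of all tested genes, 10.2% were lower without overlap in Q215X/+ than in WT, 13.7% in HA-NRG1 type III/+ than in Q215X/+, and 11.1% in the double than in HA-NRG1 type III/+. The group means were 4.15 ± 0.396, 2.85 ± 0.307, 1.35 ± 0.0992 and 1.07 ± 0.0748 FPKM (SD, n = 2). In bulk tissue, fewer cells or axons that hold a transcript and less of it in each cannot be told apart.

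Dpysl2, the most studied member, had FPKM values in sets 0 and 1 of 16.3 and 10.9 in WT, 14.6 and 10.4 in Q215X/+, 14.3 and 10.7 in HA-NRG1 type III/+, then 12.9 and 11 in the double. All 4 genotypes overlapped, and the gap between the sets was wider than any gap between group means. Dpysl3 had 13 and 11 in WT, 13.7 and 12.2 in Q215X/+, 13.5 and 13.4 in HA-NRG1 type III/+, then 14.0 and 12.3 FPKM in the double. Only the HA-NRG1 type III/+ libraries stood clear of both WT libraries, by a margin smaller than the gap between the WT libraries. Of all tested genes, 14.7% were higher without overlap in that comparison. Dpysl4 had 6.55 and 6.28 in WT, 7.32 and 5.93 in Q215X/+, 5.92 and 6.57 in HA-NRG1 type III/+, then 6.64 and 5.65 FPKM in the double. No genotype stood apart for this gene.

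Crmp1 was near the floor of the table, with FPKM values of 0.0987 and 0.0491 in WT, 0.0167 and 0.0325 in Q215X/+, 0.116 and 0.0731 in HA-NRG1 type III/+, then 0.172 and 0.122 in the double. The double was highest and Q215X/+ lowest, with no overlap between those groups. Of all tested genes, which leave out Crmp1, 14.6% were higher without overlap in the double than in Q215X/+. Crmp1 did not reach the mean of 1 FPKM needed for the main test. It also overlaps Evc, a ciliary gene at 14.2 to 16.4 FPKM, on chromosome 5 (37242058 to 37292163). The sources used here do not say whether the authors' quantification used strand, so reads of the overlapping genes may not be told apart and the level of Crmp1 is uncertain. The region of Dpysl2 likewise overlaps Pnma2, which was at 0.398 to 0.749 FPKM, and Gm5464. No run of 30 bases was shared between the coding transcripts of any of the 10 pairs of members. Exact matches alone were compared, so reads that fit more than 1 member with mismatches were not assessed.

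**Figure D1:**
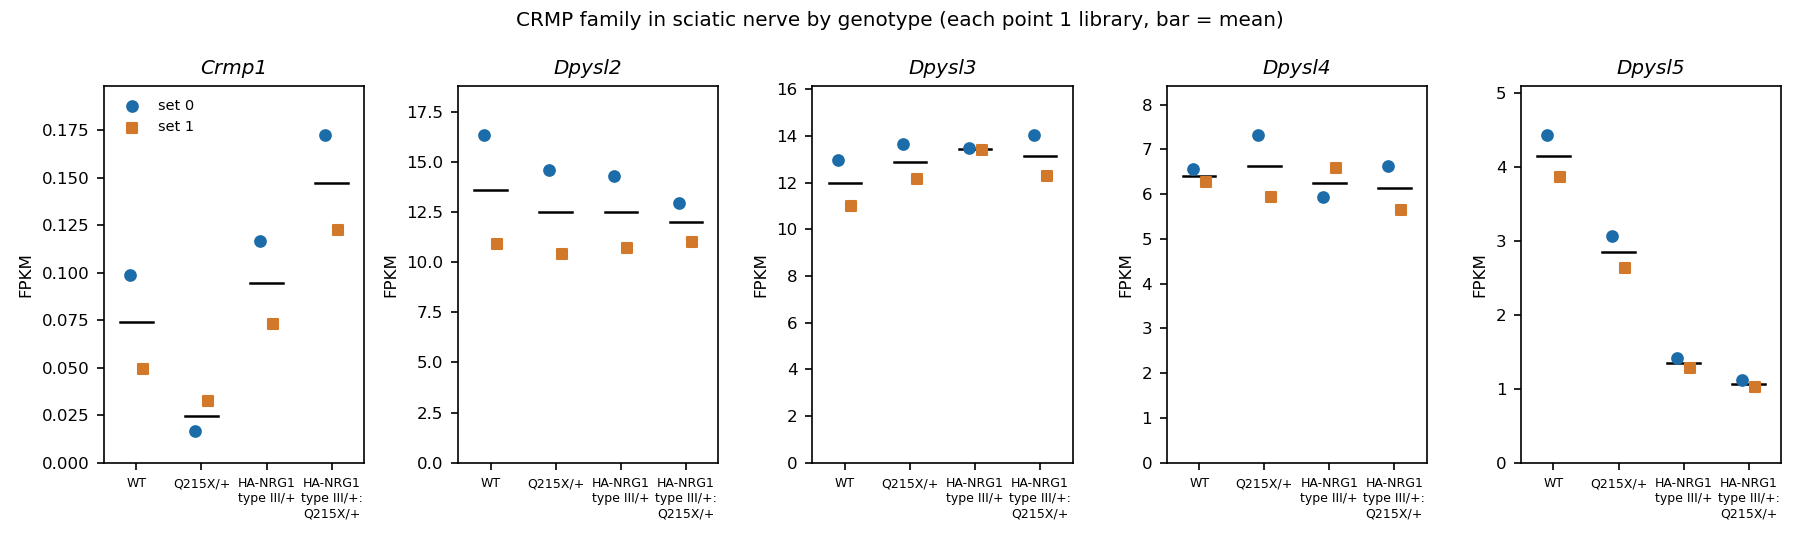
Level in FPKM (y axis, linear and starting at 0, with its own range for each gene) of the 5 CRMP genes by genotype (x axis). Circles are set 0, squares are set 1, and the bar is the mean of the 2 libraries. Dpysl5 steps down from 4.15 FPKM in WT to 1.07 FPKM in the double without overlap, while Dpysl2, Dpysl3 and Dpysl4 overlap across most genotypes.

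Setting the double against Q215X/+ addresses the transgene on the mutant background, and this difference uses none of the libraries by which Dpysl5 was picked. Its SE, interval and p-values rest on the spread over all 8 libraries, which include those libraries. They are therefore not independent of that choice, and a fit with only the groups compared is given among the alternatives below. Dpysl5 was 62.5% lower in the double than in Q215X/+ (1.07 against 2.85 FPKM). The difference in log2(FPKM + 1) was -0.89 (SE 0.11, 95% interval -1.15 to -0.63), and it was 63.4% lower within set 0 and 61.4% lower within set 1. Over all tested genes, the 5th to 95th percentiles of this difference were -0.25 to 0.29, and Dpysl5 ranked 74 from the lowest of 12530 genes.

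With limma over all 8 libraries this did not pass (unadjusted p = 0.000119, adjusted p = 0.0786). With the set as a replicate block it did (adjusted p = 0.0151, SE 0.08). Of the 4 members tested, 0 were called in this comparison, where 0.0399% of all tested genes were called, and with the block 1 of 4 was, beside 1.72% of all tested genes (0.87% lower and 0.854% higher). Sex-linked genes read both Q215X/+ libraries as male and both double libraries as female, so sex and genotype cannot be told apart in this comparison. A term for sex, which rests on the male and the female library of HA-NRG1 type III/+, gave -0.81 (SE 0.20, adjusted p = 0.981), and with the block as well -0.94 (adjusted p = 0.539). The male library was in set 0 and the female library in set 1. Without the block, this term therefore cannot separate sex from set. Of all tested genes, 15.2% were lower in both double libraries than in both Q215X/+ libraries and 14.6% were higher in both.

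The other members showed much smaller differences between the double and Q215X/+. Dpysl2 differed by -0.04 (SE 0.24, 95% interval -0.63 to 0.54), Dpysl3 by 0.03 (SE 0.11, interval -0.24 to 0.29) and Dpysl4 by -0.09 (SE 0.12, interval -0.38 to 0.20), each with adjusted p = 1 by limma. None of these intervals reached the -0.89 estimated for Dpysl5, although each still allows a change of some size. With the block the adjusted p-values were 0.866, 0.909 and 0.739. The difference between members was not tested. Crmp1, in a limma fit without the filter (18870 genes), was higher in the double by 0.16 (SE 0.04, adjusted p = 0.287), a log2(FPKM + 1) scale on which changes of so low a gene are compressed.

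The transgene on the wild-type background is the contrast by which the family was picked. There Dpysl5 was 67.4% lower in HA-NRG1 type III/+ (1.35 against 4.15 FPKM), a log2(FPKM + 1) difference of -1.13 (SE 0.11). It was 67.9% lower in set 0, where the transgenic library was male and the WT library female, and 66.9% lower in set 1, where both were female. The other members differed by -0.10 (Dpysl2), 0.16 (Dpysl3) and -0.03 (Dpysl4). Leaving out 1 library moved these values over -0.37 to 0.17, 0.046 to 0.27 and -0.098 to 0.031. In this contrast 0.0638% of all tested genes were called, and 15.7% were lower in both HA-NRG1 type III/+ libraries than in both WT libraries.

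The mutation alone went with a smaller difference in Dpysl5, which was 31.3% lower in Q215X/+ than in WT (log2 difference -0.42, SE 0.11). It was 30.8% lower in set 0 and 32.0% lower in set 1. Sex separated these groups as well, since both WT libraries were read as female. Dpysl2 differed by -0.11 (interval -0.69 to 0.48), Dpysl3 by 0.10 (interval -0.17 to 0.37) and Dpysl4 by 0.03 (interval -0.26 to 0.33), all with adjusted p = 1 by limma. Of these 3 members 0 were called, beside 0.00798% of all tested genes.

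Between the double and WT, which were both read as female, Dpysl5 was 74.2% lower (1.07 against 4.15 FPKM). The log2 difference was -1.31 (SE 0.11), and 16.7% of all tested genes were lower in both double libraries than in both WT libraries. Dpysl2 differed by -0.15 (interval -0.73 to 0.43), Dpysl3 by 0.12 (interval -0.14 to 0.39) and Dpysl4 by -0.06 (interval -0.35 to 0.23), with adjusted p = 1 for each by limma. Here too 0 of the 3 were called, beside 0.112% of all tested genes. Q215X/+, HA-NRG1 type III/+ and the double were all set against the same WT libraries, so these 3 contrasts are not separate evidence.

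The interaction of transgene and mutation compares the transgene difference on the 2 backgrounds. Sex was uneven over the genotypes, since only Q215X/+ had no female library and only HA-NRG1 type III/+ had both sexes. A difference between the sexes therefore enters the interaction, whose median over 5 sex-linked genes was -4.00. It cannot by itself show whether the transgene acted differently on the 2 backgrounds. For Dpysl5 the interaction was 0.24 (SE 0.15), given as a description, because it subtracts the difference by which the gene was picked. In FPKM the double was 20.8% below HA-NRG1 type III/+ (21.0% in set 0 and 20.6% in set 1), and Q215X/+ was 31.3% below WT. The interaction was 0.06 for Dpysl2 (interval -0.76 to 0.88), -0.13 for Dpysl3 (interval -0.51 to 0.25) and -0.06 for Dpysl4 (interval -0.47 to 0.35), with adjusted p = 1 for each by limma. Across all tested genes 0.00798% were called.

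**Figure D2:**
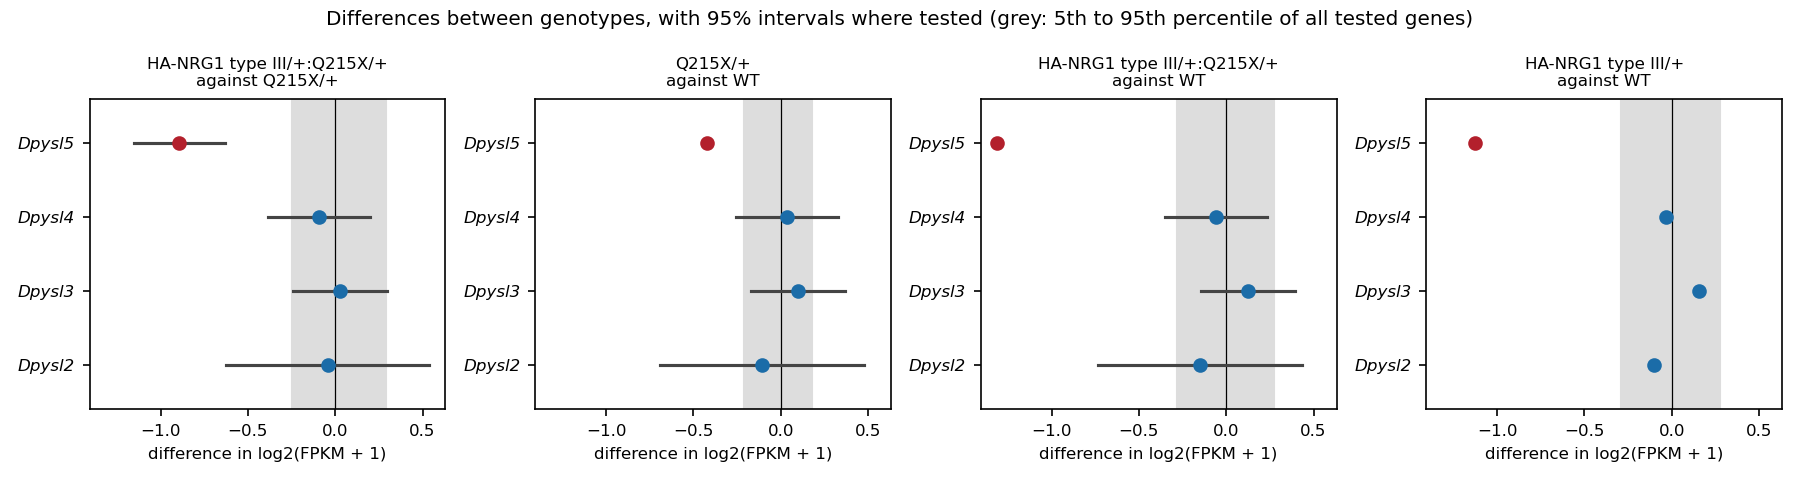
Difference in log2(FPKM + 1) between genotypes (x axis) for the 4 members with a mean of at least 1 FPKM (y axis), in 4 comparisons. Points are limma estimates, bars are 95% intervals, drawn only where a test is given, and the grey band spans the 5th to 95th percentiles of all tested genes. Dpysl5 lies left of the band in all 4 panels, from -0.42 to -1.31, and the intervals drawn for the other members include 0.

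The share of the family taken by Dpysl5 followed its level. The summed FPKM of the 5 genes was 36.2 ± 5.87 in WT, 34.9 ± 5.31 in Q215X/+, 33.6 ± 2.26 in HA-NRG1 type III/+, then 32.5 ± 3.39 in the double (SD, n = 2), with all groups overlapping. The share of Dpysl5 in that sum was 11% and 12.1% in the WT libraries, 7.93% and 8.45% in Q215X/+, 4.04% and 4% in HA-NRG1 type III/+, then 3.22% and 3.38% in the double. The genotypes did not overlap in this share. The share restates the levels above against a sum that ran from 30.1 to 40.4 FPKM over the libraries. As a ratio within 1 library it does not depend on the scaling of that library.

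Several members, but not all, differed between the sets in the same direction in every genotype. Dpysl2, Dpysl3 and Dpysl5 were higher in set 0 than in set 1 in all 4 genotypes, a direction shared by 21.9% of tested genes (31.5% were higher in set 1 in all 4). For Dpysl2 the ratio of set 0 to set 1 was 1.5 in WT, 1.40 in Q215X/+, 1.34 in HA-NRG1 type III/+, then 1.17 in the double. For Dpysl5 the ratio was 1.10 to 1.16. Crmp1, near the floor, ran from 0.515 in Q215X/+ to 2.01 in WT, and Dpysl4 was higher in set 1 in HA-NRG1 type III/+. What the sets stand for is not given in the labels.

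The genes whose pattern over the 8 libraries was most like that of Dpysl2 included Gsk3b (Pearson r = 0.994), the kinase that phosphorylates CRMP2, and Dyrk1a (r = 0.985), a kinase that primes several substrates of the Gsk3 enzymes. Both belonged to the 5 most similar of 11823 ranked genes, with Rbm26 (0.991), Hnrnpu (0.988) and Pvrl1 (0.981). Gsk3b had FPKM values in sets 0 and 1 of 15.6 and 12.7 in WT, 14.6 and 12.1 in Q215X/+, 14.6 and 12.5 in HA-NRG1 type III/+, then 14.0 and 12.7 in the double. Dyrk1a had 9.65 and 7.04, 8.92 and 7.09, 8.87 and 6.74, and 8.13 and 6.88 FPKM in the same order. Both were higher in set 0 in every genotype, so the shared pattern included the gap between the sets. These correlations describe 8 libraries that share their set and scaling.

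**Figure D3:**
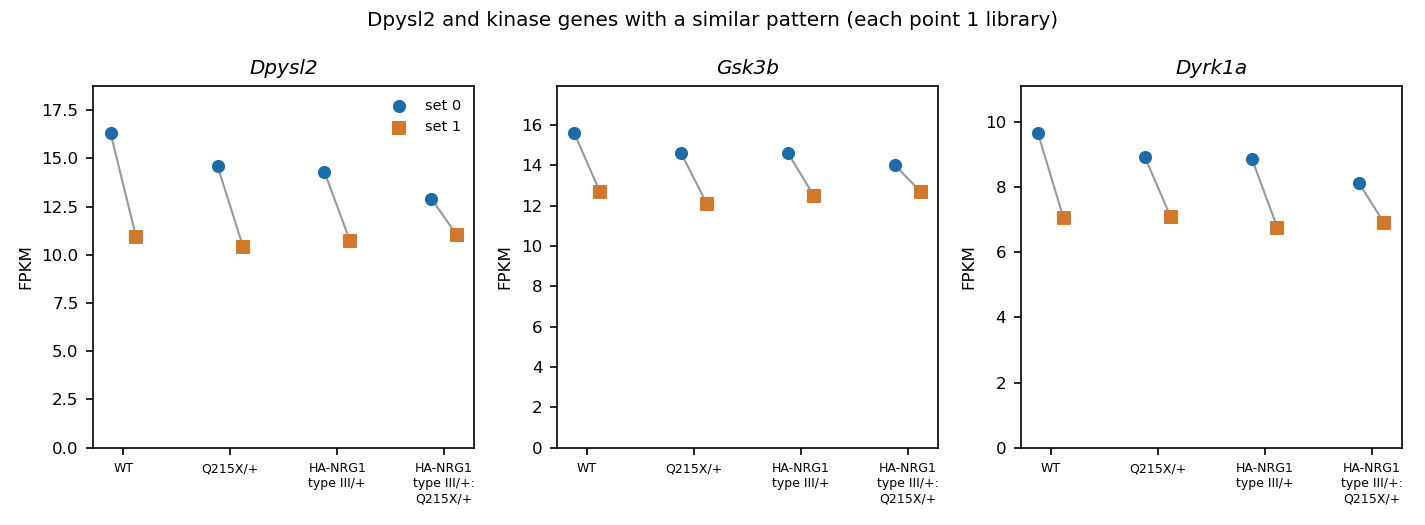
Level in FPKM (y axis, linear and starting at 0) of Dpysl2, Gsk3b and Dyrk1a by genotype (x axis), with set 0 as circles, set 1 as squares and a line joining the 2 libraries of a genotype. All 3 genes are higher in set 0 in every genotype, and for Dpysl2 the gap runs from 16.3 against 10.9 FPKM in WT to 12.9 against 11 FPKM in the double.

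Dpysl5 had other neighbours in pattern. Its 10 most similar genes were Arhgef26 (r = 0.985), Pxdc1 (0.985), Dennd5b (0.977), Maz (0.976), Epn2 (0.976), Mpdz (0.974), Faah, Phc2, Vgll3 and Fa2h (0.972 each). Arhgef26, a guanine nucleotide exchange factor, had FPKM values in sets 0 and 1 of 12.8 and 13.1 in WT, 11.1 and 11.1 in Q215X/+, 9.22 and 9.20 in HA-NRG1 type III/+, then 9.10 and 8.50 in the double. Faah, which degrades endocannabinoids, had 13.5 and 12.3, 12 and 10.2, 9.21 and 7.39, and 7.76 and 7.01 FPKM. Fa2h, the hydroxylase that makes hydroxylated myelin lipids, had 371 and 374, 343 and 310, 287 and 280, and 280 and 252 FPKM. Each stepped down in the same order of genotype means as Dpysl5, but over a smaller range of log2 values. In the double against Q215X/+ these 10 genes differed by -0.12 to -0.53 in log2(FPKM + 1), against -0.89 for Dpysl5. These 10 genes were picked for their likeness to Dpysl5 over the same 8 libraries, so steps in the same direction follow from the choice. Their differences are therefore described without a test.

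**Figure D4:**
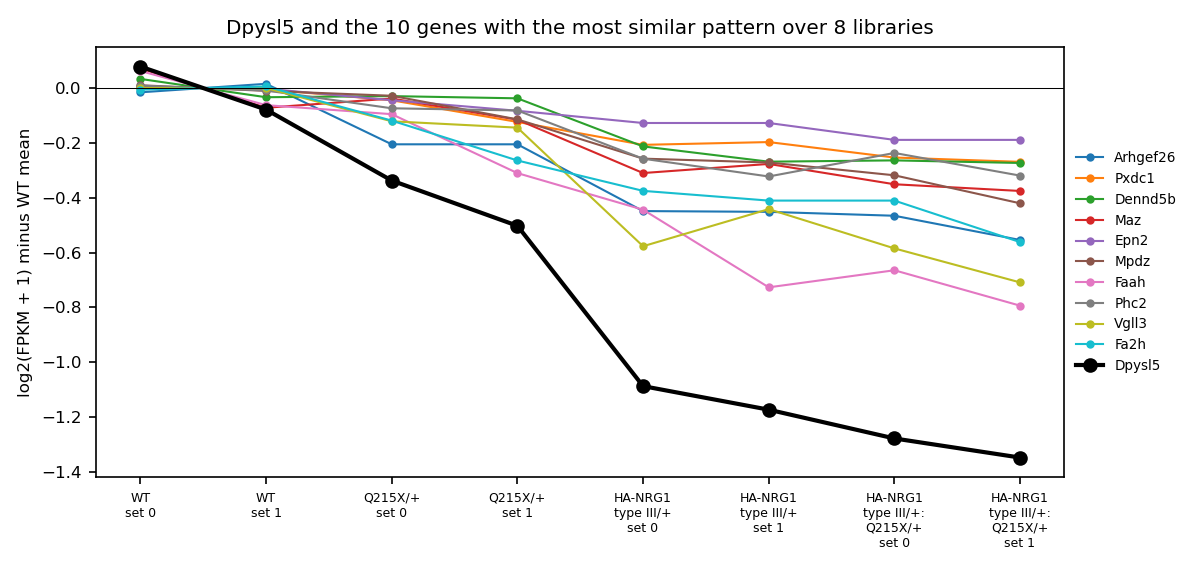
Level in log2(FPKM + 1) minus the WT mean (y axis) in each of the 8 libraries (x axis) for Dpysl5, in black, and the 10 genes with the highest Pearson correlation with it, in colour. Lines join the libraries only to guide the eye. All 11 genes step down from WT to the libraries with the transgene, and Dpysl5 spans the widest range.

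Dpysl3 was most like Cd68 (r = 0.982), a lysosomal protein of macrophages, followed by Arsg (0.957), Eif2ak1 (0.956), Runx1t1 (0.953) and Psap (0.952). Cd68 had FPKM values in sets 0 and 1 of 19.4 and 14.1 in WT, 21.1 and 16.3 in Q215X/+, 20.9 and 20.8 in HA-NRG1 type III/+, then 22.5 and 18.5 in the double. Dpysl4 was most like Elf2 (0.968), Spag9 (0.962), Ipmk (0.957), Zcchc6 (0.944) and Sec22c (0.943). Members were less alike to each other, from r = 0.539 for Dpysl2 and Dpysl3 to r = -0.427 for Dpysl3 and Dpysl5.

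Genes beside Dpysl5 on chromosome 5 did not share its pattern. The 5 nearest tested genes on each side were Hadha, Hadhb, Kcnk3, Slc35f6 and Cenpa before it and Mapre3, Tmem214, Agbl5, Ost4 and Emilin1 after it. They differed by -0.19 to 0.09 between the double and Q215X/+ and by -0.11 to 0.31 between HA-NRG1 type III/+ and WT, and 0 of 10 were called in either, with or without the block. Mapre3 codes for a protein of growing microtubule ends, and it differed by -0.10 (SE 0.11) between the double and Q215X/+.

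**Figure D5:**
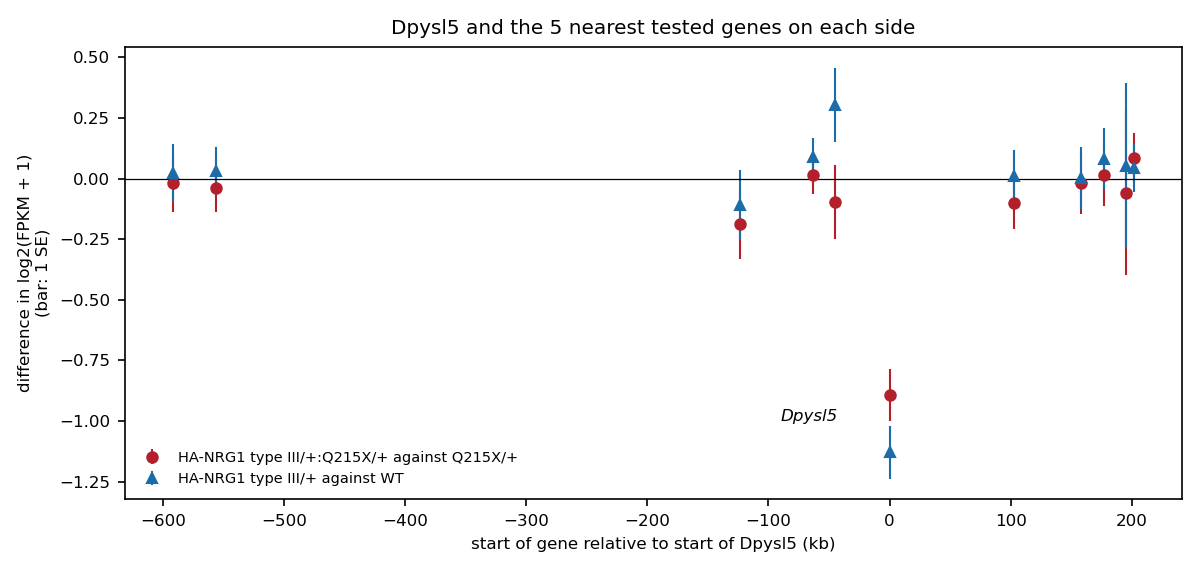
Difference in log2(FPKM + 1) (y axis) of Dpysl5 and of the 5 nearest tested genes on each side, by distance of the gene start from that of Dpysl5 in kilobases (x axis). Circles compare the double with Q215X/+, triangles compare HA-NRG1 type III/+ with WT, and bars are 1 SE. The neighbours lie between -0.19 and 0.31, and Dpysl5 lies at -0.89 and -1.13.

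The signal that named the family comes from secreted semaphorins and their receptors. Of 26 tested genes of semaphorin signalling, 0 rose and 0 fell between the double and Q215X/+ by limma, with 13 above 0 and 13 below and a median of 0.00 (all tested genes, -0.01). Sema3g, a secreted semaphorin of blood vessels, had FPKM values in sets 0 and 1 of 33.7 and 26 in WT, 30.9 and 29.5 in Q215X/+, 46.3 and 43.0 in HA-NRG1 type III/+, then 49.4 and 43.8 in the double. Every library with the transgene was above every library without it. Of all tested genes, 14.6% were higher without overlap in the double than in Q215X/+, and 14.7% in HA-NRG1 type III/+ than in WT. The share for both contrasts together was not computed. For Sema3g the difference between the double and Q215X/+ was 0.61 (SE 0.14, adjusted p = 0.301, and 0.0311 with the block). Sema3e, the ligand of plexin D1, ran the other way, with 2.21 and 2.11, 2.24 and 2.55, 1.75 and 1.73, and 1.61 and 1.57 FPKM. It differed by -0.39 (SE 0.09, adjusted p = 0.345, and 0.105 with the block). Sema4d, the ligand of plexin B1, differed by -0.35 (SE 0.10, adjusted p = 0.426) and Mical3, of the enzymes that oxidise actin, by -0.26 (SE 0.12, adjusted p = 0.861).

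Enzymes that modify CRMPs differed little. Of 20 tested kinases, phosphatases and proteases, 0 rose and 0 fell between the double and Q215X/+, with a median of -0.05. Camk2b, a calcium-dependent kinase, had FPKM values in sets 0 and 1 of 18.2 and 17.9 in WT, 16.4 and 16.2 in Q215X/+, 14.7 and 15.6 in HA-NRG1 type III/+, then 14.2 and 13.9 in the double. It differed by -0.20 (SE 0.07, adjusted p = 0.631) between the double and Q215X/+. Gsk3a differed by -0.12 and the phosphatase gene Ppp1ca by -0.12, each with adjusted p = 1.

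Partners of CRMPs include tubulins and the kinesin-1 motors that carry CRMP2 along axons. Of 20 tested, 0 rose and 0 fell between the double and Q215X/+. With the block 0 rose and 2 fell, Kif5a and Kif5c, both kinesin-1 heavy chains of neurons. The block called 0.854% of all tested genes as higher and 0.87% as lower. Kif5a had FPKM values in sets 0 and 1 of 10.3 and 15.8 in WT, 12.4 and 13.4 in Q215X/+, 5.31 and 6.74 in HA-NRG1 type III/+, then 5.85 and 7.98 in the double. Kif5c had 17.9 and 25.6, 22.6 and 23.3, 10.1 and 13.4, and 12.1 and 14.8 FPKM. For both genes, every library with the transgene was below every library without it. Of all tested genes, 15.2% were lower without overlap in the double than in Q215X/+, and 15.7% in HA-NRG1 type III/+ than in WT. The share for both contrasts together was not computed. Between the double and Q215X/+ Kif5a differed by -0.82 (SE 0.22, adjusted p = 0.412, and 0.0311 with the block) and Kif5c by -0.74 (SE 0.20, adjusted p = 0.414, and 0.0376 with the block). Chn1 differed by 0.15 and Tuba1a by -0.18, neither called. Of the enzymes of pyrimidine breakdown, Dpys, the dihydropyrimidinase gene itself, was listed at 0 in 5 of 8 libraries and at most at 0.0306 FPKM, and Dpyd differed by -0.14 (SE 0.14, adjusted p = 1).

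Several axonal RNAs were, like Dpysl5, lower in the libraries with the transgene. All 4 defining axonal markers, the neurofilament genes Nefl, Nefm and Nefh and the peripherin gene Prph, were lower in both double libraries than in both Q215X/+ libraries. The same held for 15.2% of all tested genes. Nefl had FPKM values in sets 0 and 1 of 4.57 and 8.25 in WT, 5.47 and 5.73 in Q215X/+, 1.85 and 3.43 in HA-NRG1 type III/+, then 2.23 and 3.8 in the double. Nefh had 4.33 and 6.39, 5.51 and 4.70, 1.54 and 2.01, and 1.86 and 2.95 FPKM, and differed by -0.86 (SE 0.22, adjusted p = 0.376, and 0.0747 with the block) between the double and Q215X/+. Stmn3, a tubulin-binding stathmin of neurons, had 8.45 and 12.2, 9.44 and 10, 3.26 and 5.12, and 3.57 and 5.32 FPKM and differed by -1.0 (SE 0.25, adjusted p = 0.361, and 0.0276 with the block). Over the whole axonal list, 10 of 15 tested genes were below 0 with a median of -0.28, and 0 were called. With the block 1 fell (Stmn3), beside 0.87% of all tested genes. Uchl1 was higher, by 0.60 (SE 0.19, adjusted p = 0.542). The summed level of the 21 axonal genes was 942 and 1100 FPKM in Q215X/+ and 978 and 1230 in the double, and Tac1 was listed at 0 in both HA-NRG1 type III/+ libraries. Between Q215X/+ and WT, where Dpysl5 differed by -0.42, Nefh differed by -0.04, Prph by 0.06 and Stmn3 by -0.06. The part of axonal RNA in the level of Dpysl5 was not tested.

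In each list of Schwann cell genes, more tested genes were lower than higher in the double than in Q215X/+. Of 18 tested genes of myelinating Schwann cells, 14 were below 0 between the double and Q215X/+ with a median of -0.16, 0 were called, and 2 fell with the block (Cnp and Pllp). Cnp, an enzyme of myelin membranes, had FPKM values in sets 0 and 1 of 844 and 963 in WT, 820 and 897 in Q215X/+, 453 and 522 in HA-NRG1 type III/+, then 454 and 503 in the double (log2 difference between the double and Q215X/+ -0.84, SE 0.15, adjusted p = 0.206, and 0.0120 with the block). The summed level of the list was 67500 and 63300 FPKM in Q215X/+ and 63000 and 58800 in the double. Of 9 tested non-myelinating Schwann cell genes 7 were below 0 with a median of -0.20, and 0 were called. With the block 2 rose (Ngfr and Adamtsl1) and 1 fell (Scn7a). Scn7a, a sodium channel of these cells, had 77.5 and 96.4, 83.1 and 88.9, 52.5 and 65.9, and 59.2 and 67.8 FPKM. Of 11 tested genes of immature and repair Schwann cells 7 were below 0 with a median of -0.14, and 0 were called. With the block 2 rose (Ngfr and Ucn2). Among all tested genes 0.854% rose and 0.87% fell with the block. None of these lists was tested for its part in the level of Dpysl5.

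Other cells of the nerve differed less evenly. The medians between the double and Q215X/+ were 0.25 for 8 endothelial genes, 0.20 for 10 macrophage genes, 0.02 for 8 fibroblast genes, 0.13 for 4 perineurial genes, 0.13 for 8 genes of pericytes and smooth muscle, 0.23 for 7 adipocyte genes and 0.55 for 6 genes of lymphocytes and mast cells, with 0 called in each list. With the block Trem2 and Cx3cr1 rose and Lyve1 fell among macrophage genes, Lum rose among fibroblast genes and Ly9 rose among lymphocyte genes. Hbb-b2 and Alas2 fell among red blood cell genes, also with the block. Beside these, 0.854% of all tested genes rose and 0.87% fell with it. The medians of 5 red blood cell genes (-2.47) and 7 skeletal muscle genes (-2.71) were far below 0, again with 0 called without the block. Red blood cell genes summed to 599 and 1280 FPKM in Q215X/+ and to 49.1 to 244 elsewhere, and skeletal muscle genes to 899 FPKM in set 1 of Q215X/+ and to 2.94 to 71.7 elsewhere. Their part in the members' levels was not tested.

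As checks of the labels, the FPKM of Nrg1 was 0.204 and 0.164 in WT, 0.326 and 0.190 in Q215X/+, 0.393 and 0.312 in HA-NRG1 type III/+, then 0.498 and 0.358 in the double, so each set had more in its transgenic than in its matching non-transgenic library. Whether transgene reads enter this level is not given. Mbp, a defining marker of a myelinated nerve, was at 15500 to 18200 FPKM in all 8 libraries. Total FPKM per library ran from 443733 to 530901, of which short RNA genes took 1.83% to 10.4%.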

How the data were processed

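RNA levels of 8 sciatic nerve libraries were taken from the authors' deposited table, which holds 1 FPKM value per gene and library. TopHat2 2.0.9, Cufflinks 2.2.0 and the build mm10 (the same assembly as GRCm38) are listed in the submitters' processing notes, without further settings. The column stem for HA-NRG1 type III/+ was matched to its genotype because the other 3 stems match the other labels, and the endings 0 and 1 could not be tied to replicate numbers. The table gives no read counts, so depth is unknown. Steps between low values put the relative depth at 0.73 to 1.09 times that of WT set 0.

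Differences were fitted with limma 3.58.1 (R 4.3.3) on log2(FPKM + 1), with 4 group means over 8 libraries (4 residual degrees of freedom), a variance prior that follows the mean and Benjamini-Hochberg adjustment over 12530 genes whose mean reached 1 FPKM. Genes with adjusted p under 0.05 were called. A fold change on this scale understates that of low genes. The script was tested on simulated data.

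The endings were treated as pairs because the difference of set 1 minus set 0 correlated over genes between genotypes, from r = 0.118 to r = 0.304 over all 6 pairs of genotypes. This pairing comes from the data and not from the labels. Sex was read from Xist (over 50 FPKM in female libraries) and Ddx3y.

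Alternatives were other pseudocounts, no filter, the block, a term for sex, upper quartile scaling, no variance trend, only the groups compared, and leaving out each library. The members and the 19 gene lists were chosen with earlier results of these data known. Named from each list were up to 4 genes with the smallest p between the double and Q215X/+, besides the 10 or 5 genes most correlated with each member, its chromosome neighbours and the label checks (some named genes are not reported here); Nefl, Mbp, Evc, Pnma2 and genes called with the block were named after their values were seen. RefSeq promoter windows and GENCODE M21 gene models gave sequence and positions.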

Additional observations from a re-analysis of the deposited data

How the results depend on the processing

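Over the alternatives run, Dpysl5 was lower in the double than in Q215X/+ in all of them, and the side of the threshold changed only with the replicate block. The difference was -0.89 (limma adjusted p = 0.0786), -0.89 with the replicate block (adjusted p = 0.0151), -1.33 with a pseudocount of 0.1 (adjusted p = 0.0655) and -1.09 with 0.5 (adjusted p = 0.0755). It was -0.88 with upper quartile scaling (adjusted p = 0.132), -0.81 with sex as a term and -0.94 with sex and the block together. Without the filter the adjusted p was 0.138, without the variance trend 0.0648, and with only the groups compared 0.347. Leaving out 1 library at a time gave -0.97 to -0.81 (adjusted p = 0.154 to 0.551), and 0 of 8 such fits called it. Against WT, Dpysl5 in HA-NRG1 type III/+ was at -1.55 and -1.33, and in the double at -1.86 and -1.56, with pseudocounts of 0.1 and 0.5. Some differences near 0 changed sign. Dpysl2 in the double against Q215X/+ was 0.34 with a term for sex, but -0.06 with that term and the block. Dpysl3 was 0.03 with the term alone and -0.15 with that term and the block. Leaving out 1 library moved Dpysl2 from -0.27 to 0.18, Dpysl3 from -0.064 to 0.12 and Dpysl4 from -0.22 to 0.041 in that comparison. The same ranges were -0.42 to 0.12 for Dpysl2 and -0.16 to 0.043 for Dpysl4 in the double against WT, and -0.38 to 0.17, -0.011 to 0.21 and -0.10 to 0.17 for Dpysl2, Dpysl3 and Dpysl4 in Q215X/+ against WT. For the interaction they were -0.21 to 0.33 for Dpysl2 and -0.19 to 0.074 for Dpysl4. None of these 3 members was called in any of them.

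Counts of called genes moved more. For HA-NRG1 type III/+ against WT, 8 genes became 0 without the filter (865 had unadjusted p under 0.05 with it), 265 with the replicate block, 2 with only the groups compared and 1 to 10 without 1 library. For the double against Q215X/+, 5 became 3 without the filter, 216 with the replicate block, 9 with a term for sex, 11 with that term and the block, 3 with upper quartile scaling and 1 to 17 without 1 library. For the double against WT, 14 became 299 with the replicate block, 98 with the sex term and block, 4 with only the groups compared and 4 to 17 without 1 library. For Q215X/+ against WT, 1 became 2 without the filter, 8 with a term for sex, 9 with that term and the block, 7 with only the groups compared and 1 to 15 without 1 library. For the interaction, 1 became 9 with a term for sex, 9 with that term and the block, and 3 to 11 without 1 library. Where a group is left with 1 library, it is assumed to vary like the others. The causes were not tested. With 2 libraries a group and no read counts, the precision of levels under about 1 FPKM is not known.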
